A study of Mus musculus with 10 samples.

Results

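Transcripts of 10 CXC chemokines were measured by RNA sequencing in spleen myeloid-derived suppressor cells (MDSCs) and tumor-associated macrophages (TAMs) of mice with a floxed gene for the phosphatase SHP-2, with or without Cre recombinase in their myeloid cells. The members were Cxcl1, Cxcl2, Cxcl3, Cxcl9, Cxcl10, Cxcl12, Cxcl14, Cxcl16, Pf4 and Ppbp, chosen by symbol, and all 10 matched 1 row each of the 55421 genes in the count table. Shp2f/f mice carried a floxed Ptpn11 gene, which encodes SHP-2. Shp2f/fLysMcre mice carried the same floxed alleles together with Cre recombinase driven by the lysozyme M locus, which is active in macrophages, monocytes and granulocytes. Mice of both genotypes were 8 to 12 weeks old, bore a subcutaneous MC17-51 fibrosarcoma and gave cells at day 15. MDSCs came from the spleen by magnetic selection on Gr-1 (2 samples of each genotype). The study's methods describe these cells as polymorphonuclear MDSCs, high in Gr-1, Ly6G+ and Ly6C-. TAMs came from the tumor by sorting live CD45+CD11b+F4/80+Ly6G- cells (3 samples of each genotype). The labels do not state whether a sample was 1 mouse or a pool, and p-values measure the spread between these samples, which may be technical.

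CXC chemokines are small secreted proteins that guide leukocytes along concentration gradients by binding receptors of the Cxcr family. Cxcl1, Cxcl2, Cxcl3 and processed Ppbp act on Cxcr2 and attract neutrophils. Cxcl9 and Cxcl10 are induced by interferons and attract T cells and NK cells through Cxcr3, while Cxcl12 acts on Cxcr4 and Ackr3 and Cxcl16 is a membrane-bound ligand of Cxcr6. Pf4 and Ppbp are best known as contents of platelet granules, and macrophages can transcribe them too.

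Total counts were 33262119 to 36541823 in the 4 MDSC libraries and 28844660 to 38222998 in the 6 TAM libraries. Ptpn11, the targeted gene, was lower in Shp2f/fLysMcre TAMs (log2 fold change -1.24, adjusted p = 2.96e-09), whereas in MDSCs the difference was -0.29 (adjusted p = 0.361) by edgeR. Lyz2, the lysozyme M gene, was 43.3 to 47.1 CPM in Shp2f/fLysMcre MDSCs against 8960 to 9460 CPM in Shp2f/f MDSCs. In TAMs it was 9.37 to 12.6 against 3440 to 3660 CPM. No group carried Cre without the floxed gene, so Cre, the lower Lyz2 and the loss of SHP-2 cannot be told apart. Xist was 119 to 132 CPM (counts scaled to the library size) in Shp2f/fLysMcre MDSCs against 0.0289 to 0.029 in Shp2f/f MDSCs, and 209 to 371 against 4.82 to 18.1 in TAMs. Y-linked transcripts were present in all 10 libraries and lower with Cre, as for Ddx3y (22.3 to 27.8 against 50.6 to 54.7 CPM in MDSCs, 38.6 to 44.7 against 81.8 to 85.5 CPM in TAMs) and Eif2s3y (31.6 to 35.0 against 86.5 to 87.6, and 23.8 to 26.0 against 69.4 to 72.1 CPM). Each Shp2f/fLysMcre library thus held both Xist and Y-linked transcripts, and the makeup by sex cannot be told apart from the genotype. Replicate 2 of the Shp2f/fLysMcre MDSCs stood apart: 8 fibroblast markers summed to 565 CPM there and to 8.27 to 26.9 CPM in the other 3 MDSC libraries. In the spleen samples Ly6g, a defining granulocyte marker, was 8.91 to 33.2 CPM while the macrophage receptor gene Csf1r was 1030 to 1440 CPM, near the 1430 to 1700 CPM of TAMs. The MDSC samples, described as Ly6G+ in the study's methods, therefore held few Ly6g transcripts. The neutrophil list as a whole was not scarce. The 8 neutrophil markers, Ly6g among them, summed to 8840 to 24200 CPM in MDSCs and to 297 to 460 CPM in TAMs. The 9 macrophage markers, Csf1r among them, summed to 2710 to 3410 CPM in MDSCs and to 13200 to 21300 CPM in TAMs.

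Levels are CPM with library sizes adjusted by TMM (trimmed mean of M-values), except sums over marker lists, which are CPM of the total count. Fold changes compare Shp2f/fLysMcre with Shp2f/f, and a gene was called at a Benjamini-Hochberg adjusted p under 0.05 over all genes tested in edgeR's quasi-likelihood test. In bulk samples, fewer cells of a type and less RNA per cell cannot be told apart.

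**Figure D1:**
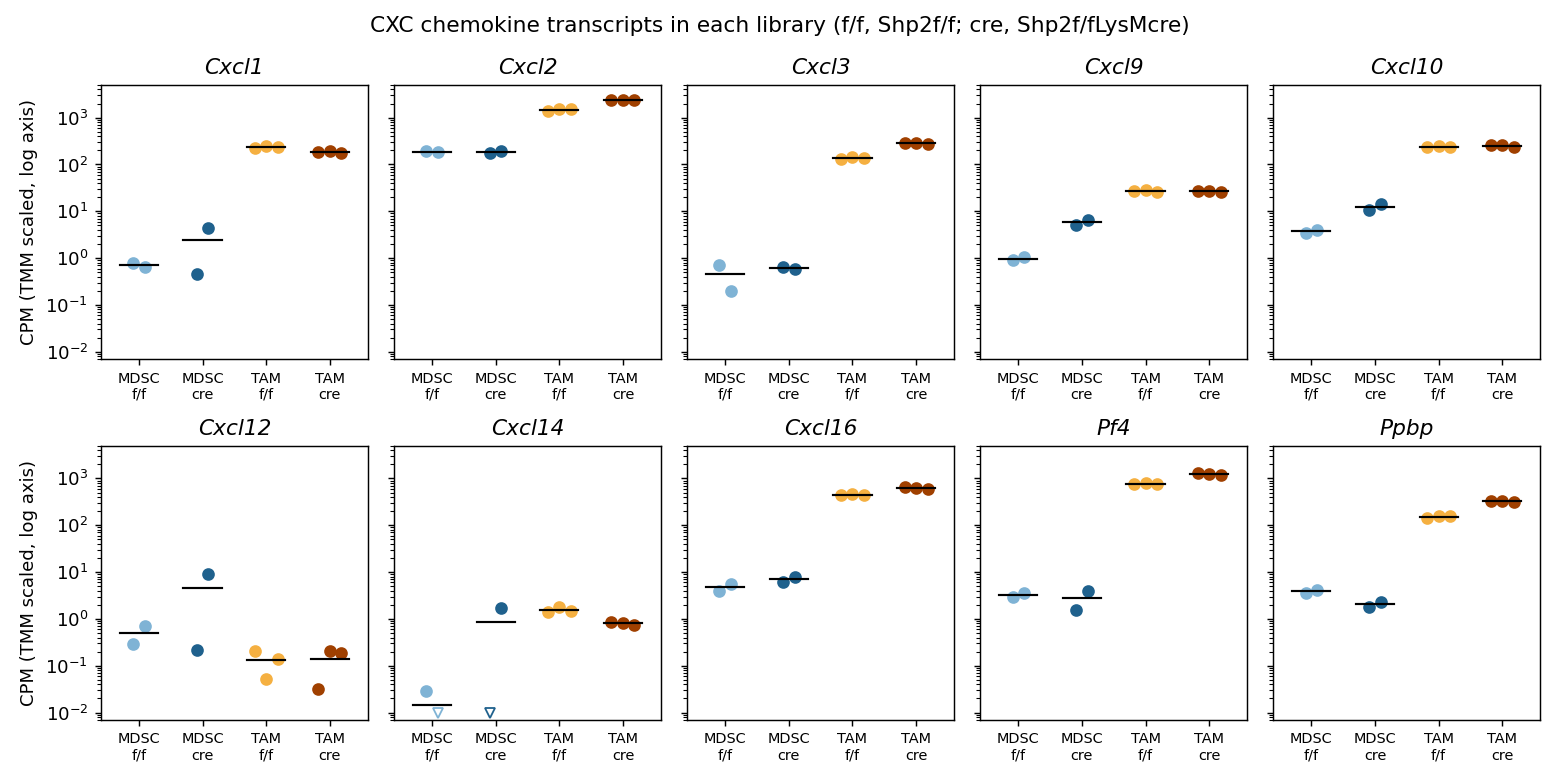
Level of each CXC chemokine (CPM, TMM scaled, log axis) in each of the 10 libraries, with points for libraries, horizontal lines for group means and open triangles for libraries with a count of 0. Among Shp2f/f libraries every member except Cxcl12 is higher in TAMs than in MDSCs, and in Cxcl1, Cxcl12 and Cxcl14 the second Shp2f/fLysMcre MDSC library lies above the other 3 MDSC libraries.

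The first comparison asked where these chemokines were transcribed in mice without Cre. Of the 10 members, 9 were higher in Shp2f/f TAMs than in Shp2f/f MDSCs and none was called lower, where 35.1% of all genes tested were called higher and 34.6% lower. The differences of the called members ran from 2.98 on the log2 scale for Cxcl2 to 8.38 for Cxcl1. The median over the members was 6.22, beside 0 over all genes tested. Cxcl1 (8.38, SE 0.598), Cxcl3 (8.24, SE 0.223) and Pf4 (7.90, SE 0.305) differed most, and all were called (adjusted p from 9.90e-10 to 9.26e-07, edgeR). Cxcl16 (6.56), Cxcl10 (6.02), Ppbp (5.30) and Cxcl9 (4.81) followed, with SEs of 0.117 to 0.167. Cxcl14 had 170 counts over the 3 Shp2f/f TAM libraries and 1 count over the 2 Shp2f/f MDSC libraries, a ratio of 108 after scaling with an exact 95% interval of 19.1 to 4290 that covers counting error only, and its call was lost without replicate 2 of the Shp2f/f MDSCs (adjusted p = 0.0607). Cxcl12 was the exception, at 0.290 and 0.692 CPM in Shp2f/f MDSCs and 0.207, 0.0521 and 0.136 CPM in Shp2f/f TAMs, and was not called (-1.89, SE 1.33, adjusted p = 0.226, edgeR). Tissue, isolation method and cell type differ together in this contrast and cannot be told apart.

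Per kilobase of exon, which allows levels of different genes to be ordered, Pf4 was the most abundant member in Shp2f/f TAMs at 1077 ± 34.9 CPM per kb (SD, n = 3). Cxcl2 followed at 718.4 ± 31.5, and together these genes made up 45.5% and 30.3% of the summed member level per kb. Cxcl16 (149.4 ± 3.22), Ppbp (141.2 ± 6.06), Cxcl1 (126.3 ± 7.33) and Cxcl10 (107.2 ± 2.98) formed a middle group whose neighbours did not overlap between samples. Cxcl3 was lower at 39.08 ± 1.78 CPM per kb and Cxcl9 lower again at 9.04 ± 0.341. Cxcl14 (0.850 ± 0.129) and Cxcl12 (0.0161 ± 0.00949) were the scarcest members.

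In Shp2f/f MDSCs the order differed, and Cxcl2 alone held 88.2% of the summed member level at 91.4 ± 3.20 CPM per kb (SD, n = 2). Pf4 (4.51 ± 0.690) and Ppbp (3.58 ± 0.476) came next. Neighbours whose samples overlapped were Cxcl10 and Cxcl16, Cxcl1 and Cxcl9, and Cxcl3 and Cxcl12. No other member exceeded 4.51 CPM per kb on average in the spleen cells of this genotype.

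In Shp2f/fLysMcre cells Cxcl2 again led in MDSCs at 88.7 CPM per kb, and below it each member overlapped the next in rank. In Shp2f/fLysMcre TAMs Pf4 (1706 ± 102 CPM per kb) and Cxcl2 (1171 ± 11.4) were again first and second. Ppbp stood above Cxcl16 in these TAMs (303.8 against 205.2 CPM per kb) and Cxcl10 above Cxcl1 (112.9 against 97.7), the opposite order to Shp2f/f TAMs in both pairs.

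Cxcl1, Cxcl2 and Cxcl3 are near neighbours on mouse chromosome 5 and share a sequence just upstream of their starts. The 250 bases before each RefSeq start (build GRCm38.p6) are shown because these genes, which all bind Cxcr2 as proteins, moved in opposite directions in TAMs. Capitals mark matches to the NF-kB site and the TATA box (TATAAA). The windows lie on the + strand at chr5:90890995-90891244 (Cxcl1), chr5:90903649-90903898 (Cxcl2) and chr5:90785851-90786100 (Cxcl3).
Cxcl1: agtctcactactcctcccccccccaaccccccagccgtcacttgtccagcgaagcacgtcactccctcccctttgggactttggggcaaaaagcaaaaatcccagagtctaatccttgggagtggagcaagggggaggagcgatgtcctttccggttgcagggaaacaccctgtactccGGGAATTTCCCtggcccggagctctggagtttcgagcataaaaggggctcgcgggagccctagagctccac
Cxcl2: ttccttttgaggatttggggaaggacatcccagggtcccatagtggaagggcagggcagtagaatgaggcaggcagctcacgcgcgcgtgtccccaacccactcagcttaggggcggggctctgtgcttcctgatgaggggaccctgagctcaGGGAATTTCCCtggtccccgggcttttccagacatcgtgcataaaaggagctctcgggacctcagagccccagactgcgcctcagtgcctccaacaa
Cxcl3: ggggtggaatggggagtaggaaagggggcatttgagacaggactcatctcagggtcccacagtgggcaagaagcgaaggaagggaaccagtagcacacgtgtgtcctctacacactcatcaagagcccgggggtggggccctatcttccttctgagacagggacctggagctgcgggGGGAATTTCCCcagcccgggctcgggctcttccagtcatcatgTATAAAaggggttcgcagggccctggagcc

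The run GGGAATTTCCC of 11 bases was the longest stretch around the NF-kB match that all 3 windows held. It began 71 bases before the start of Cxcl1, 97 before that of Cxcl2 and 73 before that of Cxcl3. Of the 32851 mouse upstream windows of this length in the RefSeq table, 14 held this run on either strand (0.0426%), whereas 7.25% held any match to the NF-kB site. A match describes letters in the window and is not evidence that a factor was bound.

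The second comparison asked how chemokine transcripts in TAMs differed between Shp2f/fLysMcre and Shp2f/f mice. Cxcl2, Cxcl3, Cxcl16, Pf4 and Ppbp rose in Shp2f/fLysMcre TAMs, Cxcl1 and Cxcl14 fell, and Cxcl9 and Cxcl10 were not called. Of the 9 members tested, 5 were called higher and 2 lower, where 23.9% of all 14446 genes tested were called higher and 26.3% lower. The median log2 fold change over the 9 members was 0.42, beside -0.01 over all genes tested.

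Among the ligands of Cxcr2, Cxcl2 was 1410, 1523 and 1524 CPM in the Shp2f/f TAMs and 2430, 2438 and 2394 CPM in the Shp2f/fLysMcre TAMs. Every Shp2f/fLysMcre library lay above every Shp2f/f library, a 1.59-fold rise (log2 fold change 0.67, SE 0.0341, adjusted p = 7.85e-08, edgeR). Cxcl3 was 130.8, 143.2 and 136.2 CPM against 290.0, 292.4 and 270.0 CPM. It doubled without overlap, with a fold change of 2.03 (log2 1.02, SE 0.0446, adjusted p = 2.97e-08, edgeR).

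Cxcl1 went the other way. Its values were 224.1, 251.4 and 234.9 CPM in Shp2f/f TAMs and 182.1, 191.5 and 176.1 CPM in Shp2f/fLysMcre TAMs. The groups did not overlap, and the fall was 1.32-fold (log2 fold change -0.41, SE 0.0471, adjusted p = 3.11e-05, edgeR). With all 10 libraries in 1 fit the value for Cxcl1 was similar at -0.37 but was no longer called (adjusted p = 0.425, edgeR). That fit also takes in the spread of the MDSCs, where the Shp2f/fLysMcre libraries held 17 and 174 counts of Cxcl1.

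Ppbp, whose precursor is processed to a Cxcr2 ligand, showed the highest fold change of the members in TAMs. It was 145.5, 158.1 and 155.1 CPM in Shp2f/f TAMs and 336.4, 332.3 and 318.4 CPM in Shp2f/fLysMcre TAMs. The rise was 2.10-fold (log2 fold change 1.07, SE 0.0422, adjusted p = 1.32e-08, edgeR). Pf4, the platelet factor that binds heparan sulfate, was 765.3, 805.5 and 759.1 CPM against 1301, 1234 and 1154 CPM. Its rise was 1.54-fold and again without overlap (log2 fold change 0.63, SE 0.0436, adjusted p = 6.57e-07, edgeR).

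Platelet markers were examined beside Ppbp and Pf4. The 12 platelet and megakaryocyte markers together summed to 5.47 to 6.57 CPM in Shp2f/f TAMs and to 7.38 to 7.66 CPM in Shp2f/fLysMcre TAMs, with Gp1bb at 0 in all 6 libraries. Of the 5 markers that could be tested, only Treml1 was called (log2 fold change 2.27), beside 23.9% of all genes called higher and 26.3% lower. In MDSCs the same markers summed to 28.8 to 42.6 CPM, where Pf4 and Ppbp did not exceed 4.24 CPM. Their part in the rise of Pf4 and Ppbp in TAMs was not tested.

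Cxcl16 (ENSMUSG00000018920, GRCm38 chr11:70453983-70459984, - strand), the membrane-bound ligand of Cxcr6, was 449.5, 461.7 and 442.5 CPM in Shp2f/f TAMs and 660.0, 615.7 and 583.7 CPM in Shp2f/fLysMcre TAMs. It rose 1.34-fold (log2 fold change 0.42, SE 0.0454, adjusted p = 1.74e-05, edgeR). Exons of Cxcl16 overlap those of Zmynd15 on the opposite strand by 552 bases, and the strand setting of the counting is not given in the sources used here. Zmynd15 rose less, from 85.6 ± 1.23 to 104 ± 1.90 CPM (SD, n = 3; log2 fold change 0.24, adjusted p = 0.000186, edgeR).

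The interferon-induced ligands of Cxcr3 were not called between the TAM genotypes. Cxcl9 was 27.8, 28.0 and 26.1 CPM in Shp2f/f TAMs and 27.3, 27.1 and 25.7 CPM in Shp2f/fLysMcre TAMs (log2 fold change -0.07, 95% interval -0.17 to 0.04). Cxcl10 was 238.0, 249.2 and 237.1 CPM against 258.4, 263.7 and 240.7 CPM (0.04, 95% interval -0.05 to 0.13). Both sets of libraries overlapped, and neither interval reached a change of the size seen in Cxcl2. The direction of Cxcl10 turned to -0.06 when libraries were scaled by their totals alone, and Cxcl9 was then called lower (-0.16, adjusted p = 0.0115).

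Cxcl14 (ENSMUSG00000021508, GRCm38 chr13:56288643-56296551, - strand), which is made chiefly by epithelial and stromal cells, was scarce in TAMs. It was 1.39, 1.82 and 1.45 CPM in Shp2f/f TAMs (47, 70 and 53 counts) and 0.873, 0.802 and 0.735 CPM in Shp2f/fLysMcre TAMs (27, 27 and 20 counts). It fell 1.98-fold (log2 fold change -0.98, SE 0.215, adjusted p = 0.00277, edgeR). With all 10 libraries in 1 fit the value was similar but was not called (-0.95, adjusted p = 0.470, edgeR). That fit also takes in the spread of the MDSCs, where the Shp2f/fLysMcre libraries held 0 and 68 counts of Cxcl14. The 8 fibroblast markers summed to 260 to 264 CPM in Shp2f/f TAMs and to 227 to 236 CPM in Shp2f/fLysMcre TAMs. Beside 26.3% and 23.9% of all genes, 2 of these 8 markers were called lower and 2 higher. Their part in the Cxcl14 result was not tested.

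Cxcl12 (ENSMUSG00000061353, GRCm38 chr6:117168535-117181367, + strand), the ligand of Cxcr4 and Ackr3, was below the filter on low counts in TAMs. Its counts were 7, 2 and 5 in the Shp2f/f libraries and 1, 7 and 5 in the Shp2f/fLysMcre libraries. These values overlapped, and a difference was not detectable at this depth.

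Other lists moved between the TAM genotypes as well, where 23.9% of all genes tested were called higher and 26.3% lower. The 9 macrophage markers summed to 13200 to 13600 CPM in Shp2f/f TAMs and to 19800 to 21300 CPM in Shp2f/fLysMcre TAMs, with 9 of 9 called higher. The 8 T and NK cell markers summed to 8.97 to 10.3 CPM and to 3.53 to 4.39 CPM, with 8 of 8 called lower. Neutrophil markers summed to 297 to 307 CPM and to 435 to 460 CPM (5 of 7 tested called higher), and endothelial markers to 71.3 to 74.8 CPM and to 105 to 111 CPM (3 of 3 tested called higher). Dendritic cell markers summed to 14.3 to 16.2 CPM and to 9.95 to 10.6 CPM, with 3 of 5 tested called lower. Their part in the chemokine changes was not tested.

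**Figure D2:**
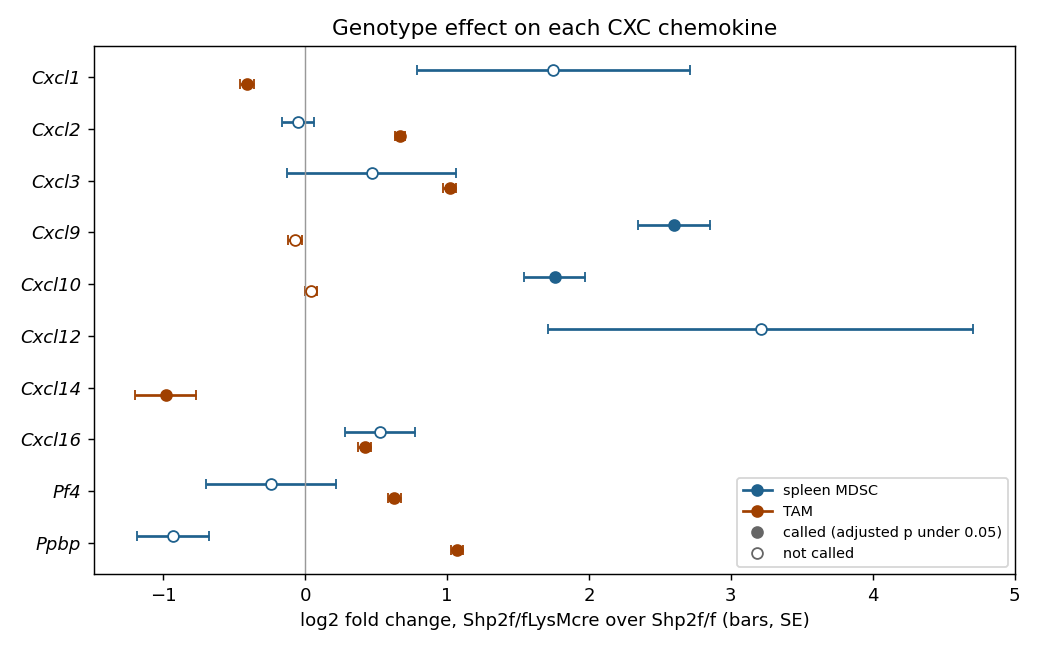
Log2 fold change of each member, Shp2f/fLysMcre over Shp2f/f, in spleen MDSCs (4 libraries) and TAMs (6 libraries), with bars for the SE, filled points for called genes and no point where a gene was below the filter. Cxcl9 and Cxcl10 are called in MDSCs alone, at 2.60 and 1.76, while Ppbp, Cxcl3, Cxcl2, Pf4 and Cxcl16 lie above 0 and Cxcl1 and Cxcl14 below 0 in TAMs.

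Of the 10 members, 5 lie in 1 cluster on chromosome 5, in the order Ppbp, Pf4, Cxcl3, Cxcl1 and Cxcl2 on the + strand. In GRCm38 the cluster runs from Ppbp (ENSMUSG00000029372, chr5:90768518-90770063) through Pf4 (ENSMUSG00000029373, chr5:90772435-90773383), Cxcl3 (ENSMUSG00000029379, chr5:90786103-90789600) and Cxcl1 (ENSMUSG00000029380, chr5:90891241-90893115) to Cxcl2 (ENSMUSG00000058427, chr5:90903871-90905938). Cxcl1 starts 122.7 kb and Cxcl2 135.4 kb from the start of Ppbp. The fall of Cxcl1 therefore stood between genes that rose on both sides.

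Cxcl5, another Cxcr2 ligand, starts 9.2 kb before Ppbp and was not a member. It rose from 5.42, 5.99 and 6.08 CPM to 14.3, 11.9 and 12.3 CPM in TAMs (log2 fold change 1.10, SE 0.0900, adjusted p = 2.11e-06, edgeR). Cxcl15, within the cluster, had no counts in TAMs. Mthfd2l, the next gene after Cxcl2, differed by 0.02 (SE 0.119, adjusted p = 0.906, edgeR).

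**Figure D3:**
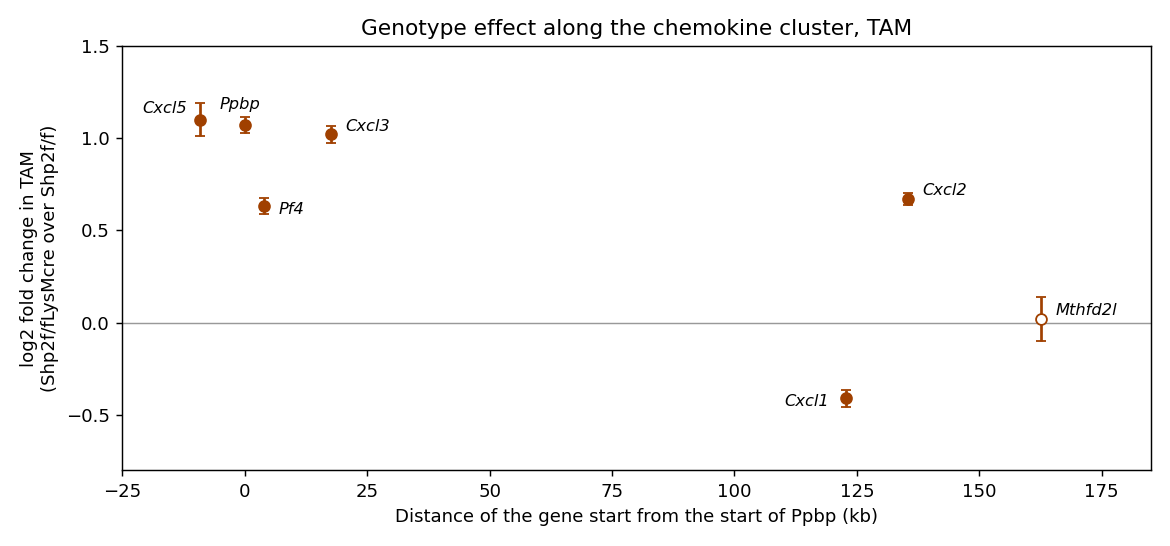
Log2 fold change in TAMs (Shp2f/fLysMcre over Shp2f/f, 3 libraries each) of the tested genes of the chemokine cluster against the distance of their start from the start of Ppbp in kb, with bars for the SE and an open point for a gene that was not called. Cxcl5, Ppbp, Pf4, Cxcl3 and Cxcl2 lie above 0, Cxcl1 lies at -0.41 and Mthfd2l at 0.02.

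The third comparison asked the same question of the spleen MDSCs. Cxcl9 and Cxcl10 rose in Shp2f/fLysMcre MDSCs, and no other member was called. Of 9 members tested, 2 were called higher and none lower, where 3.76% of all 14806 genes tested were called higher and 0.520% lower. The median log2 fold change over the 9 members was 0.53, beside -0.01 over all genes tested.

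Cxcl9 was 0.900 and 1.04 CPM in Shp2f/f MDSCs (31 and 36 counts) and 5.20 and 6.63 CPM in Shp2f/fLysMcre MDSCs (192 and 265 counts). The libraries did not overlap, and the rise was 6.06-fold (log2 fold change 2.60, SE 0.251, adjusted p = 0.0182, edgeR). Cxcl10 was 3.40 and 4.04 CPM against 10.7 and 14.6 CPM (117 and 140 against 395 and 583 counts). It rose 3.38-fold without overlap (log2 fold change 1.76, SE 0.216, adjusted p = 0.0208, edgeR).

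Both calls needed the 2 Shp2f/f libraries. Without replicate 1 of that group Cxcl9 was 2.5 (adjusted p = 0.590) and Cxcl10 1.63 (adjusted p = 0.591), and without replicate 2 they were 2.7 and 1.89 (adjusted p = 0.673 for both), while 1 gene in all was then called. With either Shp2f/fLysMcre library left out both genes were still called, but that fit sets 1 library against 2, takes its spread from the Shp2f/f libraries alone and assumes that the lone library varies like them. Even after the rise Cxcl9 and Cxcl10 stayed below their TAM levels of 25.7 to 28.0 and 237.1 to 263.7 CPM.

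Cxcl9 (ENSMUSG00000029417, chr5:92321347-92328079) and Cxcl10 (ENSMUSG00000034855, chr5:92346638-92348889) have their starts 20.8 kb apart on the - strand in GRCm38. Their upstream windows are shown because, of the members tested, these genes alone were called in MDSCs. Capitals mark matches to the NF-kB site, the interferon-stimulated response element (ISRE, GAAA followed by any 2 bases and GAAA), the AP-1 site (TGANTCA) and the TATA box, where N is any base. The windows lie at chr5:92328080-92328329 (Cxcl9) and chr5:92348890-92349139 (Cxcl10) and are written along the gene.
Cxcl9: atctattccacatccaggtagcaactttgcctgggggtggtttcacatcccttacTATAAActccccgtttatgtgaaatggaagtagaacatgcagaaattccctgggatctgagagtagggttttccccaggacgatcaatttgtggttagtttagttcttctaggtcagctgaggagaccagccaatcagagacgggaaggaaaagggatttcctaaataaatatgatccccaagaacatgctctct
Cxcl10: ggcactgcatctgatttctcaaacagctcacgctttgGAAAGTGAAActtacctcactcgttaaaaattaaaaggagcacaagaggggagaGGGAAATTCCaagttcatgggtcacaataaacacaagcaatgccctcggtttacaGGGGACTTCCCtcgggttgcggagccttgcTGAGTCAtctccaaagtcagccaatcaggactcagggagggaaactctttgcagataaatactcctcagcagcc

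The Cxcl10 window held an ISRE match from 213 to 204 bases before the start, NF-kB matches beginning 159 and 104 bases before it and an AP-1 match from 74 to 68. Of the 32851 windows, 2.98% held an ISRE match and 6.75% an AP-1 match on either strand. In the Cxcl9 window, of the 5 motifs searched (these, the TATA box and the GAS site TTCNNNGAA) only TATAAA was found, 195 to 190 bases before the start, as in 12.4% of windows. The GAS site was present in 7.02% of windows. Among the other members, the Cxcl14 window held a GAS and an ISRE match, that of Ppbp an AP-1 match and TATAAA at 2 positions, and those of Pf4 and Cxcl12 none of these letters.

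The genes next to Cxcl9 and Cxcl10 were not called in MDSCs. Sdad1 differed by -0.35 (adjusted p = 0.244) and Nup54 by 0.15 (adjusted p = 0.588) in edgeR's test. Art3, whose exons overlap those of Cxcl10 by 133 bases on the opposite strand, had at most 13 counts in an MDSC library, and its difference was 1.35 (SE 0.552, adjusted p = 0.270, edgeR).

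The Cxcr2 ligands were not called in MDSCs. Cxcl2 was 193.6 and 184.3 CPM in Shp2f/f MDSCs and 176.5 and 190.5 CPM in Shp2f/fLysMcre MDSCs, and its difference of -0.05 had a 95% interval of -0.33 to 0.23. Cxcl3 had 24 and 7 counts against 24 and 24 counts, which gave 0.47 (SE 0.595, adjusted p = 0.756, edgeR). Both sets of libraries overlapped, and for Cxcl3 the depth could not resolve a change as large as that in TAMs.

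Ppbp was 3.51 and 4.24 CPM in Shp2f/f MDSCs and 1.76 and 2.33 CPM in Shp2f/fLysMcre MDSCs. The libraries did not overlap, but the difference of -0.93 (SE 0.256) was not called (adjusted p = 0.127, edgeR). It was called with the lone replicate 1 of the Shp2f/fLysMcre MDSCs against both Shp2f/f libraries, whose spread alone that fit uses (-1.13, adjusted p = 0.00109), and with all 10 libraries in 1 fit (-0.92, adjusted p = 0.00235). Pf4 was 2.90 and 3.61 CPM against 1.54 and 3.98 CPM, which overlapped (-0.24, SE 0.457, adjusted p = 0.845, edgeR). In the same fit without replicate 2 Pf4 was called lower (-1.07, adjusted p = 0.00357), and without replicate 1 its sign turned (0.25).

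Cxcl16 was 3.95 and 5.63 CPM in Shp2f/f MDSCs and 6.12 and 7.78 CPM in Shp2f/fLysMcre MDSCs. These did not overlap, and the difference was not called (log2 fold change 0.53, SE 0.247, adjusted p = 0.332, edgeR). Its size was near that in TAMs, with an SE more than 5 times as large.

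Cxcl1, Cxcl12 and Cxcl14 differed between the 2 Shp2f/fLysMcre MDSC libraries more than between the genotypes. Cxcl1 was 0.784 and 0.635 CPM in Shp2f/f MDSCs, and 0.461 and 4.35 CPM in Shp2f/fLysMcre MDSCs (17 and 174 counts). Cxcl12 was 0.290 and 0.692 CPM against 0.217 and 9.03 CPM (8 and 361 counts). Replicate 2 of the Shp2f/fLysMcre MDSCs, the library with high fibroblast markers, was the high one in both.

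Cxcl14 had 1 and 0 counts in Shp2f/f MDSCs and 0 and 68 counts in Shp2f/fLysMcre MDSCs, and was below the filter on low counts. The fitted differences were 1.75 for Cxcl1 (SE 0.962, adjusted p = 0.411, edgeR) and 3.21 for Cxcl12 (SE 1.5, adjusted p = 0.333, edgeR). Without replicate 2 of the Shp2f/fLysMcre MDSCs they turned to -0.62 and -1.17, and with replicate 2 as the only library of its group they were 2.57 and 4.15, values of that library against the other group, whose spread alone such a fit uses. The part of the fibroblast transcripts in these values was not tested.

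**Figure D4:**
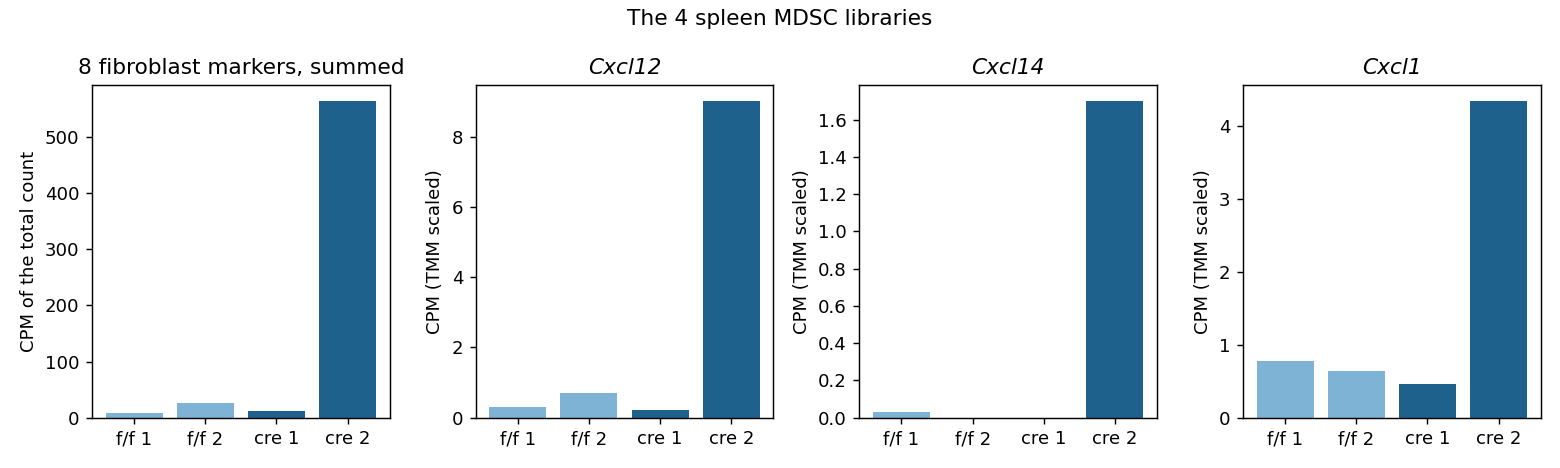
Bars give, for each of the 4 spleen MDSC libraries (f/f, Shp2f/f; cre, Shp2f/fLysMcre), the summed level of 8 fibroblast markers (CPM of the total count) and the levels of Cxcl12, Cxcl14 and Cxcl1 (CPM, TMM scaled). All 4 measures are highest in replicate 2 of the Shp2f/fLysMcre MDSCs, where the markers sum to 565 CPM and Cxcl12 is 9.03 CPM.

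Whether the effect of genotype differed between the cell types was tested as an interaction over all 10 libraries, given as the effect in TAMs minus that in MDSCs. Of the 10 members, 2 were called positive (Cxcl2 and Ppbp) and 3 negative (Cxcl9, Cxcl10 and Cxcl14), where 12.2% of all 16581 genes tested were called positive and 12.7% negative. Ppbp differed by 2.02 (SE 0.162, adjusted p = 3.28e-05) and Cxcl2 by 0.75 (SE 0.0900, adjusted p = 0.000322) in edgeR's test. Cxcl9 differed by -2.64 (SE 0.172, adjusted p = 1.34e-05, edgeR) and Cxcl10 by -1.69 (SE 0.178, adjusted p = 0.000140, edgeR). These 4 calls held under all 17 alternatives. The fit of all 10 libraries pools the spread of both cell types, although MDSC replicates differed more than most TAM replicates. The SEs above are smaller than those of the MDSC effects alone (0.256 for Ppbp, 0.112 for Cxcl2, 0.251 for Cxcl9 and 0.216 for Cxcl10). The interaction SEs and p-values may thus overstate the precision.

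The call for Cxcl14 (-6.52, SE 2, adjusted p = 0.0403, edgeR) rested on the 68 counts of 1 MDSC library and turned to 1.36 without it, and of 17 alternatives 10 lost the call and 1 reversed it. Pf4 differed by 0.89 (adjusted p = 0.109) with all libraries and by 1.74 (adjusted p = 7.01e-05) without that same library. No difference between the cell types was called for Cxcl1 (-2.16, adjusted p = 0.0854), Cxcl3 (0.58, adjusted p = 0.347), Cxcl12 (-3.11, adjusted p = 0.272) or Cxcl16 (-0.08, 95% interval -0.52 to 0.35). MDSCs and TAMs were taken from the same animals without a record of which libraries match, and the fit treated all libraries as independent.

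The chemokine receptors were described from a list of 8. In TAMs 5 of 7 tested receptors were called higher and none lower, beside 23.9% and 26.3% of all genes. Cxcr2, the receptor of Cxcl1, Cxcl2 and Cxcl3, was 8.02, 7.84 and 7.72 CPM in Shp2f/f TAMs and 16.6, 16.6 and 16.1 CPM in Shp2f/fLysMcre TAMs (log2 fold change 1.03, adjusted p = 1.87e-07, edgeR). Cxcr4, the Cxcl12 receptor, was 190, 194 and 188 CPM against 411, 410 and 390 CPM (1.05, adjusted p = 8.04e-09, edgeR). The groups did not overlap for either gene. Cxcr2 is also in the neutrophil marker list, which was higher in Shp2f/fLysMcre TAMs as given above, and the part of neutrophil transcripts in its rise was not tested. Cxcr1 rose by 1.54 from a low level (6 to 11 counts a library in Shp2f/f TAMs, adjusted p = 0.00497, edgeR), and the scavenging receptor Ackr3 rose by 0.51 (adjusted p = 3.89e-05, edgeR).

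In MDSCs 1 of 7 tested receptors was called higher, beside 3.76% of all genes. Cxcr6, the receptor of Cxcl16, was 1.74 and 1.59 CPM in Shp2f/f MDSCs and 4.25 and 6.4 CPM in Shp2f/fLysMcre MDSCs (log2 fold change 1.67, SE 0.277, adjusted p = 0.0375, edgeR). Its effect differed between the cell types (-2.46, adjusted p = 0.00333, edgeR). Cxcr3, the receptor of Cxcl9 and Cxcl10, was 1.93 to 2.60 CPM across the 4 MDSC libraries and its difference was -0.06 (adjusted p = 0.936, edgeR). In TAMs Cxcr3 was called higher (log2 fold change 0.43, SE 0.162, adjusted p = 0.0457, edgeR).

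Of the 5 other CXC ligands, 3 passed the filter in TAMs and none in MDSCs. Cxcl13, a B cell attractant, rose with Cxcl5 (log2 fold change 1.62, SE 0.246, adjusted p = 0.000232, edgeR) from 19 to 32 counts a library to 54 to 85. Cxcl11, which shares the receptor Cxcr3 with Cxcl9 and Cxcl10, fell from 8.08, 7.71 and 8.56 CPM to 5.75, 5.82 and 5.8 CPM (-0.52, SE 0.0815, adjusted p = 0.000281, edgeR). Among the 3 ligands of Cxcr3 in TAMs, Cxcl11 was called lower and Cxcl9 and Cxcl10 were not called.

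Regulators of chemokine transcripts were described from lists of 13 genes for NF-kB signaling and its feedback and 12 for interferon signaling. In TAMs, where 23.9% of all genes tested were called higher and 26.3% lower, 10 of the 13 NF-kB genes were called higher and 1 lower. Zfp36, which acts after transcription by destabilizing mRNAs, led (log2 fold change 0.90). The cytokine Il1a (0.86), the inducible cofactor Nfkbiz (0.70) and the feedback inhibitor Tnfaip3 (0.48) followed. The list's median was 0.21. Of the interferon genes 9 of 12 were called higher and none lower in TAMs, led by the transcription factor Irf8 (0.70), and the list's median was 0.29. In MDSCs, where Cxcl9 and Cxcl10 rose, none of 13 NF-kB genes and none of 10 tested interferon genes was called. Of all genes tested there, only 3.76% were called higher and 0.520% lower. The lists' medians were 0 and -0.03.

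Of 6 proteases that cleave or shed chemokines, 3 were called higher and 2 lower in TAMs, beside 23.9% and 26.3% of all genes. Mmp9, which can truncate CXC chemokines, fell from 3980 to 4260 CPM to 1940 to 2050 CPM (log2 fold change -1.06, adjusted p = 2.56e-09, edgeR), while Mmp8 (0.95), which is also in the neutrophil marker list, and Mmp12 (0.80) rose. Dpp4, which inactivates Cxcl10 and Cxcl12, fell by 0.68 on the log2 scale (adjusted p = 0.00280, edgeR). None of the 6 was called in MDSCs, beside 3.76% of all genes called higher and 0.520% lower.

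The genes whose pattern over the 10 libraries lay nearest to a member were found by the root mean square distance of log2 CPM, centred on each gene's mean, among genes of at least 5 CPM on average. Bnip3 lay nearest to Cxcl2 (0.0999), Cgnl1 to Cxcl9 (0.138), Zmynd15 to Cxcl16 (0.147) and Dab2 to Pf4 (0.168). Cav1 was nearest to Cxcl1 (0.214), Cd72 to Ppbp (0.217), Cp to Cxcl10 (0.242), Fgfr1 to Cxcl14 (0.374) and Sel1l3 to Cxcl3 (0.405). Cxcl12 had no close match, since its nearest gene, Id1, was 1.08 away. Cxcl3 had Pf4 as its second nearest gene (0.632), the only member found among another member's 2 nearest. Cxcl16 and Ppbp lay closer to each other (0.54), but other genes filled the 2 nearest places of each. The 10 libraries share the division into 2 cell types, between which 9 of the members were called.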

How the data were processed

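The authors deposited raw counts, whole numbers of reads per Ensembl gene, not normalized. Per the labels and the study's methods, stranded poly(A) libraries were sequenced as paired ends, trimmed with cutadapt 2.5, aligned to GRCm38 with STAR 2.7.3a and counted with featureCounts (Subread 1.6.2). The strand setting and the treatment of multiply mapped reads are not given in the sources used here. A second deposited table of normalized values was not used. GENCODE symbols of GRCm38 matched 99.67% of 55421 identifiers.

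Tests used edgeR 4.0.16 under R 4.3.3 (TMM, filterByExpr with a minimum count of 10, quasi-likelihood F test, Benjamini-Hochberg adjustment), per cell type and, for the interaction and the cell types, over all 10 libraries. Scripts were tested on simulated counts. Alternatives were DESeq2 1.42.0, its size factors, library totals, no filter, a minimum count of 50, a replicate block, 1 fit of all libraries, limma 3.58.1 voom weights, and leaving out each library. Same-numbered libraries correlated at -0.15 to 0.17 and no label pairs them, so numbers were not taken as pairs in the main fits. Replicates differed beyond counting noise (chi-square per degree of freedom 4.46 to 58.1). The values were 26.2 and 58.1 in the MDSC groups and 4.46 to 15.4 in the TAM groups. The fits of all 10 libraries pool these spreads, so their SEs may be too small for contrasts that involve MDSCs.

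Named genes were the 10 members, at most 4 called genes per list in order of absolute log2 fold change, 2 nearest genes per member, and marker lists by counts. Neighbouring and overlapping genes (Mthfd2l, Sdad1, Nup54, Art3, Zmynd15), Cxcl15 for its place in the cluster, Cxcr3 and Treml1 were named beside this rule. So were the checks Ptpn11, Lyz2, Xist, Ddx3y, Eif2s3y, Ly6g and Csf1r. Members and lists were chosen with earlier results of these data known. Upstream windows came from RefSeq (GRCm38.p6), in which 9 of 10 members matched.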

Additional observations from a re-analysis of the deposited data

Results flagged for a closer look

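The effect of genotype differed between TAMs and MDSCs by the interaction test for 5 members, which is what set them apart. The difference, TAM minus MDSC on the log2 scale, was 0.75 for Cxcl2, 2.02 for Ppbp, -2.64 for Cxcl9 and -1.69 for Cxcl10. For Cxcl14 it was -6.52, and replicate 2 of the Shp2f/fLysMcre MDSCs held 68 counts while the other 3 MDSC libraries held 1 count in all, and without it the difference was 1.36. Dixon's test for 1 library far from its group was not applied, since no group had more than 3 libraries.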

How the results depend on the processing

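Under the alternatives, the calls of Cxcl2, Cxcl3, Cxcl16, Pf4 and Ppbp in TAMs held in all 13 fits. In MDSCs the number of members called was 2, against 1 without a filter on low counts (Cxcl10: 1.74, adjusted p = 0.0557) and 0 to 5 when a library was left out. The number of all genes called in MDSCs was 633, against 1256 with DESeq2, 130 without a filter, 2666 in 1 fit of all libraries and 1 to 4406 when a library was left out. In TAMs 7257 genes were called, against 4837 in 1 fit of all libraries. For the interaction 4132 were called, against 2446 to 7023 when a library was left out.

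With the replicate number as a block, 4 members (3 higher, 1 lower) and 2674 genes were called in MDSCs, and 970 genes for the interaction, where Cxcl14 was -5.59 (adjusted p = 0.306). The block added calls for Cxcl12 (2.48, adjusted p = 0.00116) and Ppbp (-0.93, adjusted p = 0.0141) in MDSCs by edgeR. Cxcl12 was 0.290 against 0.217 CPM in the libraries numbered 1 and 0.692 against 9.03 CPM in those numbered 2. The 2 blocks thus went opposite ways, and the Cxcl12 call rested on replicate 2 of the Shp2f/fLysMcre MDSCs. A block fit of 4 libraries leaves little from which to estimate spread. Between the genotypes, same-numbered libraries correlated at 0.17 for both MDSC pairs and at -0.08 to 0.06 for the 3 TAM pairs. The MDSC pairs must give equal values, because deviations from a mean of 2 libraries are equal and opposite. These correlations cannot show whether same-numbered libraries were paired.

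Scaling by library totals moved the median of all genes to -0.11 in TAMs (2341 higher, 5225 lower) and to -0.18 for the interaction (1235 positive, 3122 negative), and Cxcl10 in TAMs to -0.06. Leaving out 1 library turned the sign of several members, of which Cxcl14 in the interaction was called and the others were not. In MDSCs the values ran from -0.62 to 2.57 for Cxcl1, -0.16 to 1.6 for Cxcl3, -1.17 to 4.15 for Cxcl12 and -1.07 to 0.25 for Pf4. For the interaction they ran from -2.98 to 0.25 for Cxcl1, -0.55 to 1.24 for Cxcl3, -4.06 to 1.28 for Cxcl12, -8.84 to 1.36 for Cxcl14 and -0.33 to 0.16 for Cxcl16 (0.10 without replicate 2 of the Shp2f/fLysMcre MDSCs). The cause was not tested. Of 550 member values under alternatives, 506 kept their direction and side of the threshold, 15 gained and 18 lost a call, and 11 turned. Depth limited Cxcl12 in TAMs and Cxcl3 and Cxcl14 in MDSCs, which had 24 counts or fewer in most libraries.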

Other observations

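Transcripts of other cell types varied between the libraries. Islet markers (5 genes) summed to 846 to 6690 CPM in Shp2f/f TAMs and to 5.75 to 73.8 CPM in Shp2f/fLysMcre TAMs. They summed to 6.81 to 9 CPM in MDSCs. In Shp2f/fLysMcre TAMs 5 of 5 were called lower, beside 26.3% of all genes. Keratinocyte markers (6 genes) summed to 36.9 CPM in replicate 2 of the Shp2f/fLysMcre MDSCs and to 1.53 to 2.98 CPM in the other 3 MDSC libraries. In TAMs they were 49.7 CPM in replicate 3 of the Shp2f/fLysMcre libraries and 0.6 to 5.04 CPM in the other 5. Replicate 3 held 0.735 CPM of Cxcl14, the lowest of the 6. The part of keratinocyte transcripts in the Cxcl14 values was not tested.

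Over all genes tested in MDSCs, 3.76% were called higher and 0.520% lower. Neutrophil markers (8 genes) summed to 8840 to 8950 CPM in Shp2f/f MDSCs and to 22100 to 24200 CPM in Shp2f/fLysMcre MDSCs. Of these 8 markers 4 were called higher, beside the rise of Cxcl9 and Cxcl10. Their part in that rise was not tested. Erythroid markers were called higher in 5 of 7 genes and B cell markers lower in 2 of 5 in the Shp2f/fLysMcre MDSCs. Dendritic cell markers (6 genes) summed to 48.2 to 54.0 CPM in MDSCs with 1 called higher, and endothelial markers (6 genes) summed to 17.6 to 34.3 CPM in MDSCs with none of 3 tested called.

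Without a filter on low counts, Cxcl12 in TAMs differed by 0.07 between the genotypes (SE 0.741, adjusted p = 0.968, edgeR) and Cxcl14 in MDSCs by 5.55 (SE 2.38, adjusted p = 0.480, edgeR).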
